A study of Arabidopsis thaliana with 6 samples.

Results

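Copper import, copper pumping and copper delivery genes were followed in leaves of the essp3 mutant of Arabidopsis thaliana, together with SPL7, the transcription factor of the copper deficiency response. The members, chosen with earlier results of these data known, were found by locus code. They were 10 genes, of which 9 had a probe set on the ATH1 array among 22746 probe sets that are not controls. No probe set of the table carried the code of PAA2 (AT5G21930), the thylakoid copper pump gene, which was not analysed here. Each of the 9 stood on its own probe set, without the suffix that marks probes shared between transcripts.

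The arrays held total RNA from leaves of 2-week-old seedlings raised on MS agar plates with 1.5% sucrose under 16 h of light and 8 h of dark. All samples shared 3 days of cold at 4 °C and growth at 22 °C in light and 20 °C in dark. The mutant, essp3, is impaired in BRAHMA, an ATPase that remodels chromatin in SWI/SNF complexes, and was measured on 3 arrays. Wild type, with 3 further arrays, carries the ProβCG:GUS reporter, a seed storage protein promoter fused to β-glucuronidase. The labels name the allele as brm5 in one place and brm-6 in another, do not describe the lesion, and give 1 mutant line. They give the reporter for wild type and do not say whether the mutant carries it. The samples of each group are called biological replicates.

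Copper is needed in plastocyanin, in copper/zinc superoxide dismutases, in cytochrome c oxidase and in ethylene receptors, but free copper ions are toxic. Plant cells therefore take it up through COPT channels, pass it between small cytosolic chaperones and pump it into compartments with P-type ATPases. When copper is scarce, SPL7 is known to switch on genes of copper uptake and microRNAs that lower the transcripts of dispensable copper proteins.

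Signals are MAS5 values on a linear scale, and the authors scaled each array to the same mean. The share of probe sets with a Present call was 56.4% to 60.2% on mutant arrays and 57.6% to 60.3% on wild-type arrays. Arrays correlated at 0.961 to 0.978 within a group and at 0.899 to 0.936 between groups (log2 signals). The array names in the table's header carry 1 code for all mutant arrays and another for all wild-type arrays. What the code stands for is not stated, and whatever it marks cannot be told apart from genotype in any result below. The leaf identity of the samples was checked with 3 leaf genes on the array (RBCS1A, RCA and CA1). All were Present on every array, and their summed signal was 146511 to 150273 on mutant arrays and 131734 to 156254 on wild-type arrays. Of 9 root marker genes, 6 had no Present call, and the summed root signal was 2616 to 2995 on mutant arrays and 3198 to 3726 on wild-type arrays. Most of that sum was the root glucosidase gene PYK10, which averaged 2444 ± 169 in the mutant and 2986 ± 279 in wild type (SD, n = 3 each). None of the 5 shoot meristem markers (STM, KNAT1, CLV3, WUS, KNAT2) had a Present call.

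Transcripts of the copper genes moved in both directions in the mutant. COPT2, PAA1 and CCH were higher than in wild type, COPT5 and ATX1 were lower, and COPT1, RAN1 and SPL7 did not pass the test. HMA5 was not called Present on any array and was not tested. Of the 8 tested members, 3 rose and 2 fell at a limma adjusted p under 0.05, whereas of all 13626 tested probe sets 28.4% changed, 14.4% upward and 13.9% downward. The median log2 fold change, mutant minus wild type, was 0.13 over the 8 members and -0.01 over all tested probe sets. Because the members were chosen with earlier results known, these shares and medians are given for scale only. Testing required a Present call on at least 3 of 6 arrays, and 7 of the 8 members were Present on all 6. In RNA from whole leaves, fewer cells of a type and less RNA per cell cannot be told apart.

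**Figure D1:**
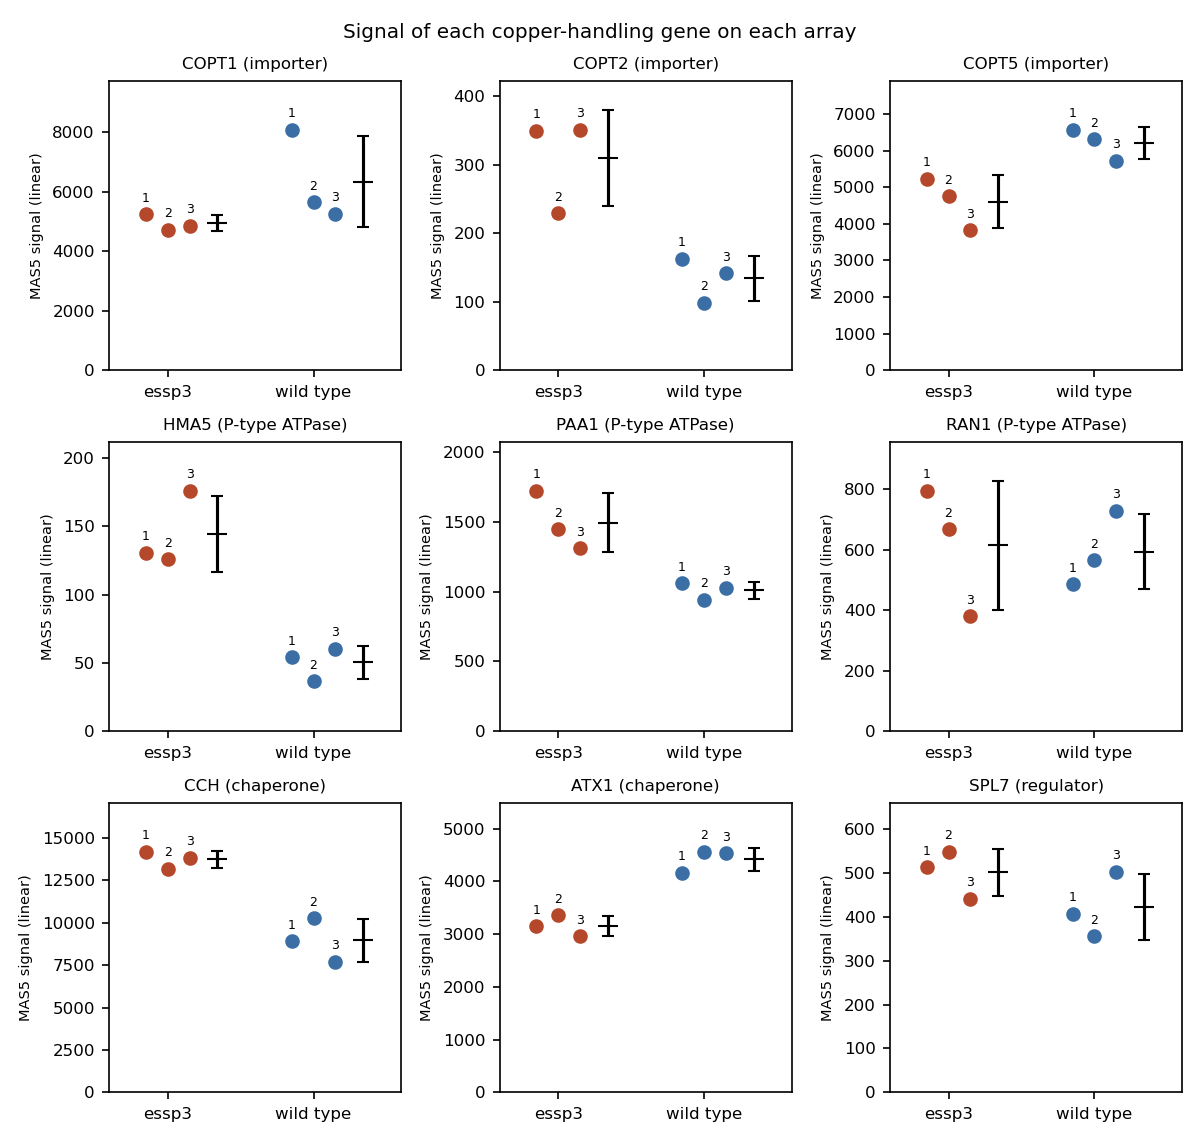
MAS5 signal (linear axis from 0) of each of the 9 measured genes on each array, essp3 left and wild type right; numbers are replicate numbers and the black bars give mean ± SD of 3 arrays. The groups are separate for every gene except RAN1 and SPL7, and HMA5 is plotted although none of its signals was called Present.

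Among the importers, COPT2 (AT3G46900) showed the largest change of any tested member. COPT2 is a copper channel of the plasma membrane whose transcript is known to rise under copper and under iron deficiency. Its signal was 349, 229 and 351 on mutant arrays 1 to 3 and 163, 98.8 and 142 on wild-type arrays 1 to 3. Every mutant array was above every wild-type array, with mutant replicate 2 and wild-type replicate 1 closest to each other. The fitted log2 fold change was 1.21 (SE 0.27, limma adjusted p = 0.00493), a 2.31-fold higher level, and its 95% confidence interval ran from 0.62 to 1.80. Of all tested probe sets, 95.3% had a smaller change in either direction. COPT2 was called Present on 2 of the 3 wild-type arrays, so the wild-type level rests on 2 Present calls. The call did not hold in a test without moderation of the variances (adjusted p = 0.0796).

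COPT5 (AT5G20650), which is known to release copper from the vacuole and prevacuolar compartment, was lower in the mutant. Its signal was 5233, 4753 and 3830 on mutant arrays and 6569, 6310 and 5724 on wild-type arrays. The highest mutant array thus stayed below the lowest wild-type array. Its log2 fold change was -0.44 (SE 0.13, limma adjusted p = 0.0228), a level 1.36-fold higher in wild type. This was the least stable call of the 5: the adjusted p lay between 0.0559 and 0.0916 without mutant replicate 2 or 3 or without wild-type replicate 1 or 2, and it was 0.0846 without the intensity trend and 0.134 without moderation of the variances.

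COPT1 (AT5G59030), the main plasma membrane importer of copper in roots and pollen, did not pass the threshold. It read 5234, 4717 and 4859 on mutant arrays and 8079, 5647 and 5262 on wild-type arrays. All mutant signals were below all wild-type signals, but wild-type replicate 3 nearly met mutant replicate 1, and wild-type replicate 1 stood well above the other wild-type arrays. The log2 fold change was -0.33 (SE 0.15, limma adjusted p = 0.112), with a 95% confidence interval from -0.65 to -0.01 before adjustment. It was -0.14 without wild-type replicate 1, and -0.45 with an adjusted p of 0.0430 without wild-type replicate 3.

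The within-array log2 ratio of COPT2 to COPT1 was 1.54 higher in the mutant (SE 0.25), and that of COPT2 to COPT5 was 1.65 higher (SE 0.35). In neither ratio did the groups of arrays overlap. This had to be so, because on every mutant array COPT2 was higher, and COPT1 and COPT5 lower, than on any wild-type array. For the pumps, the ratio of PAA1 to RAN1 was 0.55 higher (SE 0.29), and its groups overlapped. Such ratios do not depend on how each array was scaled. The pairs were picked after the values had been seen, so no test is attached. The SEs of these and later ratios come from the spread of the arrays without moderation, unlike the SEs of the fitted changes.

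Of the copper pumps of the P1B type, PAA1 rose, RAN1 did not pass the threshold and HMA5 was not tested. PAA1 (AT4G33520), which carries copper across the chloroplast envelope, read 1721, 1445 and 1310 on mutant arrays and 1061, 943 and 1026 on wild-type arrays. Mutant and wild-type signals did not overlap, and the wild-type arrays were close together. PAA1 had a log2 fold change of 0.56 (SE 0.14, limma adjusted p = 0.0102), which corresponds to a 1.47-fold higher level in the mutant. Leaving out mutant replicate 1, the highest, gave 0.45 (adjusted p = 0.0527), and the test without moderation gave an adjusted p of 0.0690.

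RAN1 (AT5G44790), which loads copper onto ethylene receptors in the secretory pathway, gave 795, 667 and 380 on mutant arrays and 486, 566 and 729 on wild-type arrays. The groups overlapped, and the lowest and the highest signals were both from mutant arrays. Mutant signals spread 2.09-fold between the lowest and the highest array, the widest spread of the measured members within a group. The log2 fold change was 0.00 (SE 0.24, limma adjusted p = 0.994), and the 95% confidence interval of -0.52 to 0.52 leaves room for changes of the size seen in COPT5 or ATX1. Without mutant replicate 3 the value was 0.32, and without mutant replicate 1 it was -0.22.

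HMA5 (AT1G63440), a copper efflux pump known mainly from roots, had no Present call on any of the 6 arrays. The signals were 131, 126 and 176 on mutant arrays and 54.2, 36.6 and 60.3 on wild-type arrays. All 3 mutant signals were above the wild-type signals, yet neither group reached a detection call, so no fold is given. Among the 7360 probe sets with no Present call on any array, 7.84% had all mutant signals above all wild-type signals. Fitted with undetected probe sets included, HMA5 had an adjusted p of 0.0552.

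The cytosolic chaperones CCH and ATX1 moved in opposite directions. These proteins are homologues of the yeast copper chaperone Atx1 and bind copper through a short cysteine motif. CCH differs by a plant-specific extension at its end, and its transcript is known to rise under copper shortage and in senescing leaves. ATX1 here is the chaperone gene AT1G66240, not the trithorax-like gene of the same name.

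CCH (AT3G56240) read 14189, 13177 and 13839 on mutant arrays, against 8917, 10274 and 7713 on wild-type arrays. The mutant arrays were nearly level, with a highest signal only 1.08 times the lowest, and all lay above the wild-type arrays. On the log2 scale CCH changed by 0.62 (SE 0.12, limma adjusted p = 0.00166), a 1.54-fold higher level.

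ATX1 read 3151, 3356 and 2960 on mutant arrays and 4162, 4565 and 4533 on wild-type arrays. Again the groups were separate, now with the mutant arrays lower. ATX1 had a log2 fold change of -0.49 (SE 0.12, limma adjusted p = 0.00632), a level 1.40-fold higher in wild type. ATX1 was the member whose call held in all 16 alternatives, with adjusted p from 0.00429 to 0.0330. CCH lost its call in 1 alternative, the test without moderation (adjusted p = 0.0543). The within-array log2 ratio of CCH to ATX1 was 1.11 higher in the mutant (SE 0.15). Its groups could not overlap, because both genes separated the groups, in opposite directions. This pair was also picked after the values had been seen, so no test is attached.

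SPL7 (AT5G18830), the regulator of the copper deficiency response, showed no difference past the threshold. It read 513, 548 and 441 on mutant arrays and 407, 355 and 503 on wild-type arrays. Wild-type replicate 3 lay above mutant replicate 3, so the groups overlapped. The log2 fold change was 0.26 (SE 0.18, limma adjusted p = 0.311), with a 95% confidence interval from -0.13 to 0.64. SPL7 activity is not measured by its transcript. Of the 4 other large SPL genes, SPL12 alone passed the threshold, at 1063 ± 126 in the mutant and 1399 ± 117 in wild type (SD, n = 3 each; log2 fold change -0.40, limma adjusted p = 0.0475), and that call ended in 11 of 16 alternatives.

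**Figure D2:**
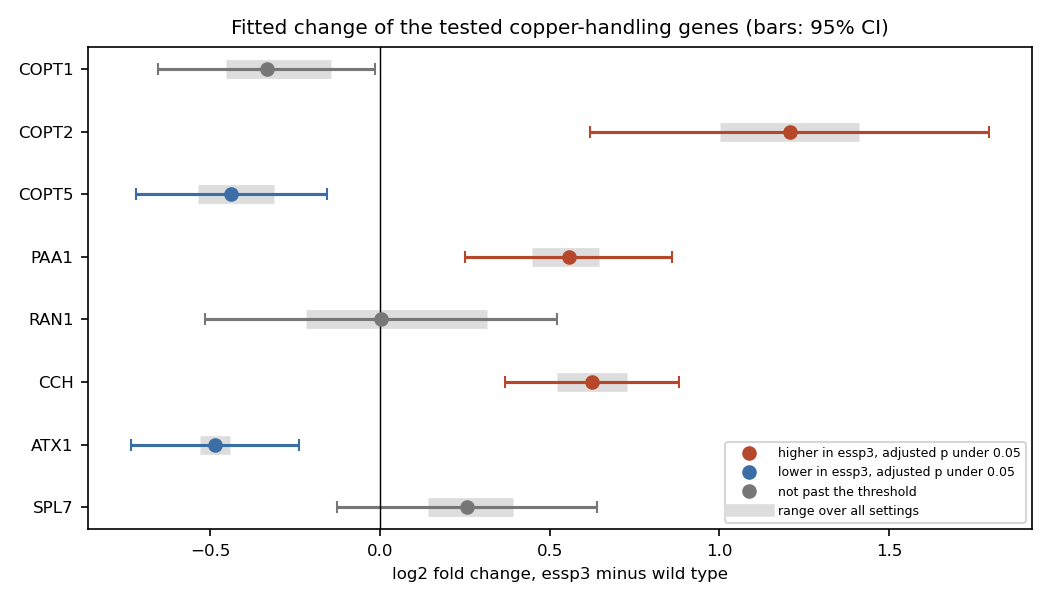
Fitted log2 fold change, mutant minus wild type, of the 8 tested genes (points) with 95% confidence intervals (bars) and the range over the planned settings (grey bands). COPT2, PAA1 and CCH lie above 0 and COPT5 and ATX1 below it, while the intervals of RAN1 and SPL7 cross 0 and that of COPT1 ends just below it at -0.01.

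COPT2 was the 1 member of 8 past 2-fold, and 6.94% of all tested probe sets passed the threshold with at least a 2-fold change. The sizes of the CCH and PAA1 changes exceeded those of 78.7% and 74.3% of all tested probe sets. For ATX1 and COPT5 the shares were 68.8% and 64.2%. The arrays of the groups did not overlap for 6 of the 8 tested members, against 42.7% of all tested probe sets. In 3 of these (COPT2, PAA1 and CCH) the mutant arrays were higher, as in 21.1% of all tested probe sets, and in 3 (COPT1, COPT5 and ATX1) they were lower, as in 21.6%. Within the mutant group, replicate 3 was the lowest array for 5 of the 9 members and the highest for 2, and replicate 1 was the highest for 5.

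**Figure D3:**
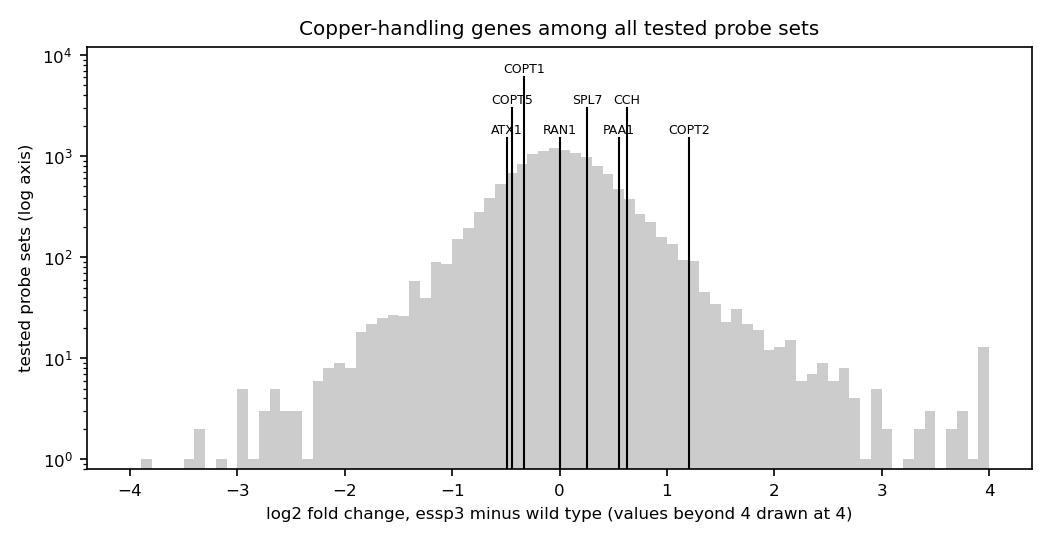
Number of tested probe sets (log axis) by log2 fold change, mutant minus wild type, with the 8 tested copper genes marked by vertical lines. COPT2 at 1.21 sits in the upper flank, and the other 7 lie between -0.49 and 0.62.

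Genes that act with these members were described from 9 lists of copper handling and related genes, also chosen with earlier results known. They hold 51 genes, of which 46 had a probe set and 34 were tested. Of these, 2 rose and 11 fell, where 14.4% of all tested probe sets rose and 13.9% fell, and the median log2 fold change was -0.21 against -0.01 over all tested probe sets. The counts of single lists below stand against the same shares, 28.4% in either direction, and most lists are too short for a share of their own.

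Within these lists, the largest falls were those of CSD2 and CSD1, both targets of the copper deficiency microRNAs. Of 12 genes in the list of such targets 5 were tested, and 4 of them fell: CSD2, CSD1, CCS and COX5B-1. CSD2 encodes the copper/zinc superoxide dismutase of the chloroplast. It read 924, 1098 and 934 on mutant arrays and 8059, 6591 and 7572 on wild-type arrays (log2 fold change -2.91, SE 0.13, limma adjusted p = 1.18e-08). CSD1, the cytosolic counterpart, averaged 1089 ± 214 in the mutant and 4687 ± 719 in wild type (SD, n = 3 each), a log2 fold change of -2.11. CCS, the chaperone that inserts copper into these dismutases, averaged 408 ± 60.7 in mutant leaves and 1055 ± 7.85 in wild-type leaves, a log2 fold change of -1.38. COX5B-1, a subunit gene of cytochrome c oxidase that was named after its value had been seen, had -0.88 (limma adjusted p = 0.00113; 0.0566 without moderation). The fifth tested target, the laccase gene LAC4, did not pass (log2 fold change -0.49, limma adjusted p = 0.0681). The microRNAs themselves were not measured here.

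Genes known to be induced by copper deficiency through SPL7, apart from the members, did not share a direction. Of 7 such genes 4 had a probe set and 2 were tested. FSD1, the iron superoxide dismutase that takes over from the copper enzymes when copper is short, fell in the mutant. It read 16693, 17489 and 16291 on mutant arrays and 28308, 28569 and 30979 on wild-type arrays (log2 fold change -0.80, SE 0.10, limma adjusted p = 6.45e-05). All mutant arrays were thus far below the wild-type arrays. YSL2, a transporter gene for metal chelates with nicotianamine, rose instead, with 605 ± 32.9 in the mutant and 391 ± 33.7 in wild type (SD, n = 3 each; log2 fold change 0.63, limma adjusted p = 0.00835). CSD2 and FSD1 therefore both fell, CSD2 by more. The within-array log2 ratio of FSD1 to CSD2 was thus 2.11 higher in the mutant (SE 0.11). This pair was also picked after the values had been seen, so no test is attached.

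The largest rise within the lists was that of a further transport gene. OPT3, a phloem transporter known for copper and iron, read 4931, 4696 and 5538 on mutant arrays and 658, 783 and 541 on wild-type arrays. OPT3 had a log2 fold change of 2.95 (SE 0.15, limma adjusted p = 2.06e-08), a 7.72-fold higher level without overlap. YSL1, a metal chelate transporter gene of leaf veins, fell to 313 ± 82.8 in the mutant, against 946 ± 133 in wild type (SD, n = 3 each; log2 fold change -1.62, limma adjusted p = 7.33e-05). HMA1 and YSL3 did not pass, so of 4 tested genes of this list 1 rose and 1 fell. Among the zinc pumps related to the copper pumps, HMA4 was the 1 tested gene; its log2 fold change of -0.53 (limma adjusted p = 0.0466) lost its call in 10 of 15 alternatives.

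Among genes of the proteins that receive or bind copper, 1 each of the ethylene receptor, mitochondrial delivery and metallothionein lists passed the threshold, where 28.4% of all tested probe sets did. Neither plastocyanin gene passed the test: PETE1 averaged 9782 ± 361 in mutant leaves and 8719 ± 711 in wild-type leaves, and PETE2 averaged 46275 ± 1318 in mutant leaves and 46823 ± 1636 in wild-type leaves (SD, n = 3 each). Their log2 fold changes were 0.17 (95% confidence interval -0.07 to 0.40) and -0.02 (-0.22 to 0.19). Of 5 ethylene receptor genes, clients of RAN1, ERS1 fell (log2 fold change -0.68, limma adjusted p = 0.0120), at 1467 ± 128 in the mutant and 2406 ± 703 in wild type (SD, n = 3 each). That call ended without the intensity trend (adjusted p = 0.0584) and without moderation (adjusted p = 0.159). Of 6 tested genes of copper delivery to mitochondria, COX17-2 fell (log2 fold change -0.69, limma adjusted p = 0.0432), a call that ended in 9 of 16 alternatives. Of 5 metallothionein genes, whose proteins bind copper, MT2A fell, with 7816 ± 547 in the mutant and 16504 ± 1029 in wild type (SD, n = 3 each; log2 fold change -1.08, limma adjusted p = 1.15e-05).

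**Figure D4:**
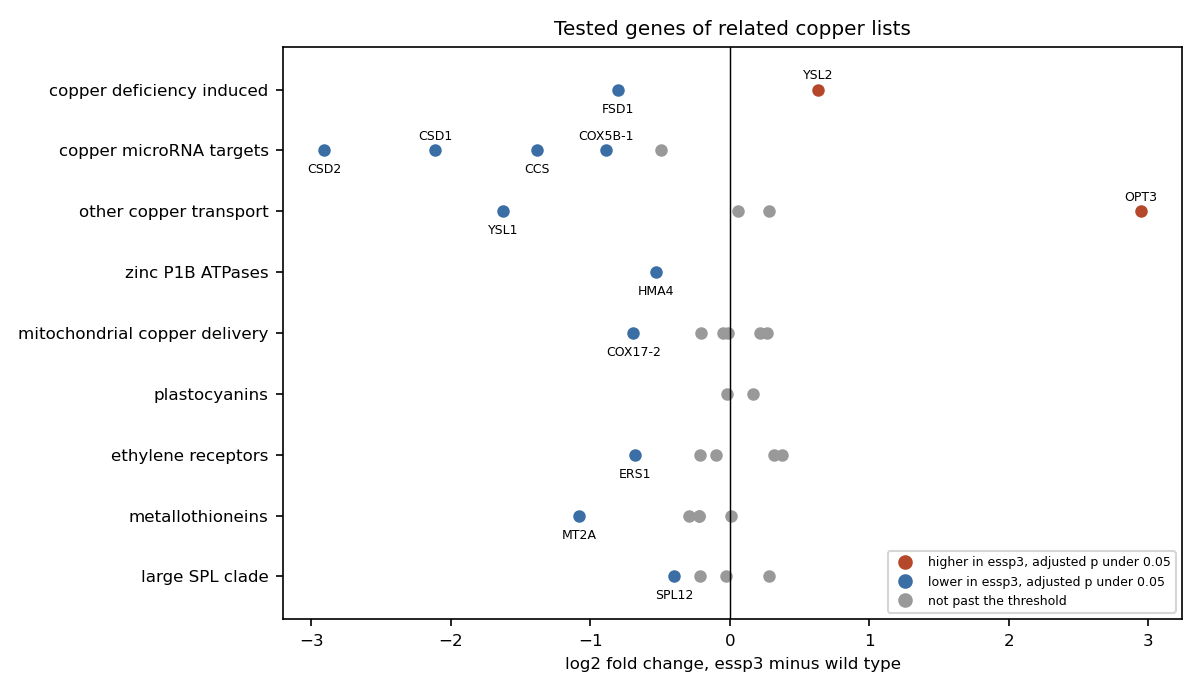
Log2 fold change, mutant minus wild type, of the 34 tested genes in the 9 related lists, 1 row per list; red points rose, blue points fell and grey points did not pass an adjusted p of 0.05. The microRNA targets CSD2 and CSD1 lie farthest to the left, at -2.91 and -2.11, and OPT3 farthest to the right at 2.95.

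The probe sets most alike to 3 members across the 6 arrays were found by the smallest root mean square difference of log2 signals centred on their own mean. For COPT2 these were AAS, annotated as a tyrosine decarboxylase, and the sulfate transporter genes SULTR3;1 and SULTR4;2, with differences of 0.165, 0.168 and 0.168 and log2 fold changes of 1.24, 1.24 and 1.26. For CCH they were the ribosomal protein gene AT1G27400, the oxoglutarate/malate translocator gene DiT1 and the pentatricopeptide repeat gene AT4G37380, with differences of 0.0382, 0.0404 and 0.0462. For SPL7 they were HEB1, APO2 and AT1G12830, with differences of 0.0434, 0.0472 and 0.0603. With 6 arrays in 2 groups, genes with a similar difference between the groups score as alike.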

How the data were processed

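Total RNA from leaves was hybridised to Affymetrix ATH1 arrays, 3 of essp3 and 3 of wild type. The authors deposited MAS5 signal intensities, scaled to a common mean per array, with detection calls, per the file headers; MAS5 is also in the submitters' processing notes. For the MAS5 settings and the annotation release, nothing is given in the sources used here. Per the file headers, the authors' deposited table also has a ratio of group means and the unadjusted p-value from their unpaired test. The value table of the series matrix held the same signals (largest difference 0).

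Members and lists were chosen with earlier results of these data known. Genes were found by locus code; symbols come from RefSeq, assembly TAIR10.1, and no coordinates are given because the table names no build. Promoter and protein sequences were not used here.

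Signals were put on the log2 scale with no offset. Probe sets Present on at least 3 of 6 arrays were tested with limma 3.58.1 in R 4.3.3 (lmFit; eBayes, trend on). Tests were two-sided, p was adjusted by Benjamini-Hochberg across the 13626 probe sets tested, and 0.05 was the threshold. Intervals are 95% and unadjusted. The fit was checked on simulated signals. Named genes are all members; FSD1, CSD1, CSD2, CCS and the plastocyanin genes; and up to 3 genes past the threshold per related list. COX5B-1, LAC4, HMA1 and YSL3 were named in addition, after their values had been seen. Precision is limited by the number of arrays, with a median SE of 0.18 for log2 fold changes. The labels call the samples biological replicates and do not say that a number marks a shared batch, so no block was used. Deviations of same-numbered arrays from their group means correlated only weakly (0.02, 0.02 and 0.03), though above those of all other pairs (-0.02 to 0.0004). The share of Present calls fell from replicate 1 to replicate 3 in both groups. A shared replicate effect is therefore not excluded. Alternatives changed the detection filter, scaling, offset, variance model, array weights and test, and left out each array in turn.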

Additional observations from a re-analysis of the deposited data

How the results depend on the processing

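ATX1 kept its call in all 16 alternatives, CCH and COPT2 lost theirs in 1 each, PAA1 in 2 and COPT5 in 6. No called member changed sign. The count of 5 members changed fell to 1 (ATX1) in the test without moderation, which called 1580 of all probe sets against 3865, and to 1 of 9 with the authors' deposited unpaired test after Benjamini-Hochberg adjustment (6 of 9 unadjusted). Leaving out 1 array gave 4 to 6 members, 10 to 12 related genes against 13, and 2679 to 3638 probe sets. The related genes, 2 up and 11 down, were 3 up and 6 down without moderation and 2 up and 7 down without the intensity trend. With the replicate block the counts were 5 members, 10 related genes and 3737 probe sets, and quantile normalization gave 5, 13 and 3867. RAN1, not called, ran from -0.22 to 0.32 when single arrays were left out. PETE2, also not called, ran from -0.038 to 0.012 in that way, and was 0.011 under quantile normalization and 0.0053 under median centring. The cause of these shifts was not tested. HMA5, and any gene near the detection limit, is bounded by signal over background. COPT2 was not in the alternative that required 6 Present calls.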

Other observations

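Further genes with copper in their title in the deposited table were listed after their values had been seen, and no test of the groups is attached. Of 11 copper amine oxidase genes, whose enzymes break down polyamines, 7 were tested, 1 rose and 2 fell. AT3G43670 averaged 95.2 ± 33.7 in the mutant and 603 ± 67.2 in wild type (SD, n = 3 each), a log2 fold change of -2.72, while AT1G31690 averaged 332 ± 38.4 in the mutant and 144 ± 35.4 in wild type, a log2 fold change of 1.23. AT4G12280, whose probes are marked as shared between transcripts, had -1.09. Of 8 genes titled as related to the chaperone CCH, 7 were tested: FP3 rose (0.77), whereas FP6 (-0.44) and HIPP22 (-1.57) fell. HIPP22 averaged 99.7 ± 17.8 in the mutant and 303 ± 93.3 in wild type (SD, n = 3 each). Of 21 multi-copper oxidase genes, 9 were tested and 1 fell, sks9, with a log2 fold change of -0.59. Of 7 genes titled as copper-binding, 5 were tested and 2 fell. AT2G28660 averaged 223 ± 19.5 in the mutant and 679 ± 76.2 in wild type (SD, n = 3 each), a log2 fold change of -1.60. AT3G24450 averaged 15.7 ± 16.5 in the mutant, with no Present call, and 108 ± 17.6 in wild type, so the size of its fall is uncertain. All these calls are at a limma adjusted p under 0.05, where 28.4% of all tested probe sets were called.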
